A study of Mus musculus with 4 samples.

Results

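The 10 genes described here act in the supply and uptake of fatty acids, their storage as triglyceride in lipid droplets, or the control of these steps. They are Cd36, Lpl, Pparg, Mogat1, Cidea, Cidec, Plin2, Plin4, Plin5 and G0s2. They were chosen by symbol from the deposited tables of a mouse liver RNA-seq series, and all 10 were found among its 33639 genes. The series profiled the liver of 1 male mouse per genotype: a mouse with global deletion of Cyp27a1 (Cyp27a1 KO), one with global deletion labelled Cyp3a4 (Cyp3a KO), one with both deletions (DKO), and a wild type (WT). All 4 were fed chow and given no treatment, and the study asked how these deletions alter bile acid synthesis. The sources used here do not give strain or age, both deletions affect every tissue, and the labels use a human gene symbol where the mouse has a family of Cyp3a genes.

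A fatty acid enters the liver cell partly through the membrane protein CD36, and lipoprotein lipase frees fatty acids from circulating triglyceride-rich particles. Inside the cell, acyltransferases such as MOGAT1 build triglyceride, and the product is held in droplets coated by perilipins and enlarged by CIDE proteins. PPARG, a fatty-acid-sensing nuclear receptor best known from adipocytes, raises the transcription of many of these genes, and G0S2 blocks the lipase that empties the droplets. In mouse liver, raised Pparg, Cd36 and Cidec are widely used as markers of fat accumulation, and several perilipin genes are targets of the related receptor PPARA, the main sensor of fatty acids in fasting liver.

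Totals ran between 49745860 and 50378101 counts per library, and 1 count was worth 0.0185 to 0.0214 CPM (counts scaled to library size with TMM factors). With 1 library per genotype there was no replicate error and no test was run, so every statement compares these 4 libraries, differences between individual mice included. Intervals in parentheses are exact 95% intervals for counting error only. A difference was called where log2(CPM + 0.5) differed by at least 1 (2-fold), the gene's mean over the 4 libraries was at least 1 CPM, and the interval of the ratio left out 1; 11743 genes met the minimum, called measured below. Of the 10 genes 8 were measured, while Cidea and Mogat1 stayed under the minimum and are given as values. Of the targeted genes, Cyp27a1 itself stood at 57.6 CPM in the Cyp27a1 KO liver, 727 in the Cyp3a KO, 65.3 in the DKO and 746 in WT, and 9 Cyp3a genes summed to 25248, 2.70, 13.2 and 9605 CPM in the same libraries. In the Cyp27a1 KO and WT the sum is mostly Cyp3a11, at 23706 and 8742 CPM. In the Cyp3a KO it is mostly Cyp3a13, at 2.44 CPM. In the DKO its largest parts are Cyp3a41a and Cyp3a11, the latter at 4.76 CPM. For 1 family member the values went against the DKO label. Cyp3a41a, whose near-identical copy Cyp3a41b makes its counts uncertain, had 5.39 CPM in the DKO against 2.12 CPM in WT (2.54-fold higher, 2.01 to 3.22), and 0.0999 CPM in the Cyp3a KO. Hepatocyte markers dominated all 4 libraries, with 9 genes summing to 63845 CPM in the Cyp27a1 KO liver, 68699 CPM in the Cyp3a KO, 89919.7 CPM in the DKO and 103881 CPM in WT. Most of each sum was Alb, at 37953, 40344, 65721 and 72499 CPM in the same libraries. Of the 9 genes 1 was called, Ttr, 2.26-fold lower in the DKO than in WT (2.24 to 2.27). Its log2 fold was -0.97 with library-total scaling and -0.81 by deposited TPM, both short of the threshold.

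The upstream sequences of 5 of the genes are shown because they divide into those that stood highest without Cyp27a1 and those that stood lowest in the DKO. Each is the stretch from 250 to 51 bases before the RefSeq transcription start (GRCm38.p6, written along the gene's own strand, minus for all 5), with no base in an annotated exon of these genes. Capitals mark AGGTCA or its complement TGACCT, the core recognised by PPARs and many other nuclear receptors.
Cd36: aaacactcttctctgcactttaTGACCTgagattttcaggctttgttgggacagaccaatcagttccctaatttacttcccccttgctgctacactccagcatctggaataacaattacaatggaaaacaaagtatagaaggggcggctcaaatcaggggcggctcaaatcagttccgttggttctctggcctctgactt
Plin2: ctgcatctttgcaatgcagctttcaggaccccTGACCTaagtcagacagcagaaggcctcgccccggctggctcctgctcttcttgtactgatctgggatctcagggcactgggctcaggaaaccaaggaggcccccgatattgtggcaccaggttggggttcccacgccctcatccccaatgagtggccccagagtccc
Plin4: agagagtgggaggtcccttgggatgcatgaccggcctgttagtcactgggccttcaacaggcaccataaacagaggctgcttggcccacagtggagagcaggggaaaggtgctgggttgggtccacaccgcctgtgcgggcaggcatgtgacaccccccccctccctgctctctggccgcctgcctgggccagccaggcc
Plin5: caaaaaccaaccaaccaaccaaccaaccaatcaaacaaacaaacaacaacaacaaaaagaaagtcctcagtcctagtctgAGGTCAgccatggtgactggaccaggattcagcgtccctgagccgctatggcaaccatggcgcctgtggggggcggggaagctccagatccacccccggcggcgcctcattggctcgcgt
G0s2: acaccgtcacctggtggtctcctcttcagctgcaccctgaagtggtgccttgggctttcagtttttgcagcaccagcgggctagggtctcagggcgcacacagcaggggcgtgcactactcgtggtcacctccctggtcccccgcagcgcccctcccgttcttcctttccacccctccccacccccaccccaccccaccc
These windows lie at chr5:17835947-17836146, chr4:86670110-86670309, chr17:56109833-56110032, chr17:56117599-56117798 and chr1:193273239-193273438, in the order printed; that of Cd36 lies inside the gene's annotated span, ahead of an internal start. RefSeq held 12 windows for 8 of the genes, not counting those on chromosomes that are not shown. The core was found on either strand in 3 of the 12, those of Cd36, Plin2 and the upstream start of Plin5, and in 11.4% of all 32851 windows of the same length. The spaced pair AGGNCANAGGNCA, the element PPAR dimers bind, was found in none of the 12 and in 0.265% of all windows. CACGTG (4.34% of all windows) and TATAAA (9.14%) were also found in none. The windows end 51 bases before the start, so copies nearer to it, a TATA box included, were not searched for. Plin4 and Plin5 share a direction below but not this core, and G0s2 has none in the window. A match is a description of letters only.

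**Figure D1:**
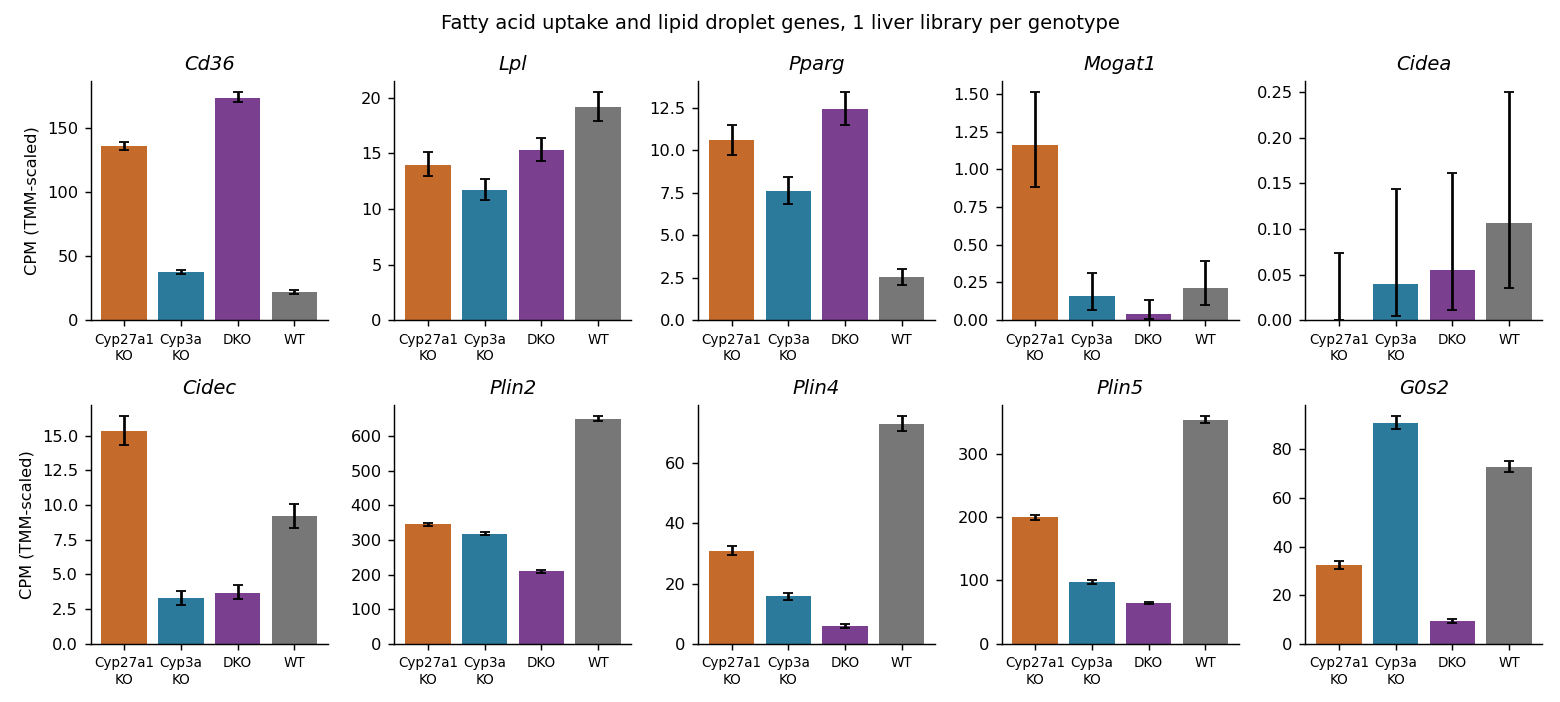
TMM-scaled CPM (y axis, from 0, a different scale in each panel) of the 10 genes in the Cyp27a1 KO, Cyp3a KO, DKO and WT libraries (x axis); bars are single libraries and error bars are exact 95% Poisson intervals. Cd36 and Pparg are lowest in WT, Plin2, Plin4 and Plin5 are highest in WT, and G0s2 is highest in the Cyp3a KO at 91.0 CPM and lowest in the DKO at 9.29 CPM.

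Fatty acid entry was marked by a large difference in Cd36 and by little in Lpl. Cd36, the scavenger receptor for long-chain fatty acids (chromosome 5, 17781690 to 17888801, mm10), stood at 136 CPM (133 to 139.6) in the Cyp27a1 KO, 37.8 (36.1 to 39.5) in the Cyp3a KO, 174 (170.5 to 178) in the DKO and 21.9 (20.6 to 23.3) in WT. Both livers without Cyp27a1 were thus far above both livers that kept it, and no 2 intervals overlapped. Against WT the Cyp27a1 KO was 6.22-fold higher (5.83 to 6.65) and the DKO 7.94-fold higher (7.45 to 8.48), whereas the Cyp3a KO was 1.73-fold higher (1.60 to 1.86), short of the threshold. Against the Cyp3a KO the DKO was 4.60-fold higher (4.38 to 4.84), so the gene was called higher without Cyp27a1 in both pairs, which have no library in common; 0.988% of measured genes were. Macrophages express Cd36 too. Of 10 Kupffer cell markers, 7 were also called higher in the DKO than in the Cyp3a KO, as were 4.02% of measured genes. Against WT, 0 of the 10 were called higher in the Cyp27a1 KO, beside 2.44%, and 2 in the DKO, beside 6.0%. The part of macrophages was not tested. By fold Cd36 ranked 34th from the top of 11743 genes in the Cyp27a1 KO.

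Lpl, the secreted lipase of lipoprotein triglyceride (chromosome 8, 68880491 to 68907448), is mostly made outside hepatocytes in adult liver. It had 14.0 CPM (13.0 to 15.1) in the Cyp27a1 KO, 11.7 (10.8 to 12.7) in the Cyp3a KO, 15.3 (14.3 to 16.4) in the DKO and 19.2 (17.9 to 20.5) in WT. The intervals of the Cyp27a1 KO and the DKO overlapped, and Lpl was not called in any of the 5 comparisons. Its log2 fold in the DKO against WT was -0.31 by counts and 0.06 by deposited TPM, so even its direction depends on the table.

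Pparg (chromosome 6, 115360951 to 115490399) was low in WT liver and higher in all 3 knockouts. It stood at 10.6 CPM (9.70 to 11.5) in the Cyp27a1 KO, 7.61 (6.86 to 8.41) in the Cyp3a KO, 12.4 (11.5 to 13.4) in the DKO and 2.51 (2.08 to 3.01) in WT, the last from 117 counts. WT was apart from all 3 others, while the intervals of the DKO and the Cyp27a1 KO touched. The folds over WT were 4.22 (3.45 to 5.20) in the Cyp27a1 KO, 3.03 (2.46 to 3.76) in the Cyp3a KO and 4.94 (4.05 to 6.06) in the DKO, all on the same WT library. Between knockouts the differences were small: the DKO was 1.63-fold above the Cyp3a KO (1.43 to 1.85) and 1.17-fold above the Cyp27a1 KO (1.04 to 1.31), neither called, although by deposited TPM the log2 fold over the Cyp3a KO reached 1.0. Pparg encodes several isoforms from separate starts, which gene-level values do not separate.

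Partner receptors did not show this pattern. Rxra, the receptor with which PPARG pairs on DNA, had 453 CPM in the Cyp27a1 KO liver, 437 in the Cyp3a KO, 385 in the DKO and 419 in WT, and Ppara had 90.8, 115, 98.3 and 126 CPM in the same libraries. Against WT, 2.44%, 2.56% and 6.0% of all measured genes were called higher in the Cyp27a1 KO, Cyp3a KO and DKO. The shares called lower were 1.36%, 1.86% and 4.02%. Of 19 listed receptors and cofactors, all measured, 1 was called higher and 0 lower in each comparison with WT. That gene was Ahr, the aryl hydrocarbon receptor, in the Cyp27a1 KO (2.07-fold, 1.92 to 2.23) and the DKO (3.19-fold, 2.97 to 3.42), its call in the Cyp27a1 KO ending with a pseudocount of 2 (log2 fold 0.98), and Srebf1, the lipogenic regulator, in the Cyp3a KO (2.25-fold, 2.13 to 2.37). Rxra and Ppara were singled out after their values were seen.

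Mogat1, a monoacylglycerol acyltransferase known as a PPARG-responsive gene of fatty mouse liver (chromosome 1, 78510991 to 78538173), was near the limit of detection. It had 58 counts in the Cyp27a1 KO liver, 8 in the Cyp3a KO, 2 in the DKO and 10 in WT. The Cyp27a1 KO was 5.43-fold above WT (2.75 to 11.9), and the DKO was 31.5-fold below the Cyp27a1 KO (8.35 to 267), so the 2 livers without Cyp27a1 sat at opposite ends. Its mean of 0.394 CPM is under the minimum, and no call was made.

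Its relative Mogat2, the intestinal-type enzyme of the same reaction, had 174 counts in the Cyp27a1 KO liver, 25 in the Cyp3a KO, 450 in the DKO and 4 in WT. It was 40.7-fold higher in the Cyp27a1 KO (15.6 to 151) and 96.8-fold higher in the DKO (37.6 to 357) than in WT, folds that rest on those 4 counts. Unlike Mogat1 it was highest in the DKO. Over all measured genes, 2.44% were called higher and 1.36% lower than WT in the Cyp27a1 KO. The Cyp3a KO had 2.56% higher and 1.86% lower, and the DKO 6.0% and 4.02%. Among 12 triglyceride synthesis genes, all measured, 1 was called higher and 0 lower in the Cyp27a1 KO, 0 higher and 1 lower in the Cyp3a KO, and 1 higher and 2 lower in the DKO. The lower ones were Gpat3, a glycerol-3-phosphate acyltransferase, 3.45-fold lower (3.01 to 3.97) in the Cyp3a KO, and Agpat2, which makes phosphatidic acid, 2.65-fold lower (2.56 to 2.74) in the DKO, and Lpin1, the phosphatidate phosphatase that follows it, 2.02-fold lower (1.99 to 2.05) in the DKO. Deposited TPM put Agpat2 at a log2 fold of -0.99 in the DKO and Lpin1 at -0.65, short of the threshold, and Lpin1 also missed it with library-total scaling (-0.81), median-of-ratios scaling (-1.0 when rounded) and recentred TPM (-0.98). The median log2 fold of the list was -0.11 for the Cyp27a1 KO, -0.19 for the Cyp3a KO and -0.07 for the DKO, beside 0.00, 0.01 and -0.01 for all measured genes.

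Of the CIDE genes, Cidec parted from Pparg in the 2 livers without Cyp3a. Cidec (FSP27, chromosome 6, 113424634 to 113435760), which joins droplets into larger ones, had 15.3 CPM (14.3 to 16.4) in the Cyp27a1 KO, 3.26 (2.77 to 3.80) in the Cyp3a KO, 3.69 (3.20 to 4.24) in the DKO and 9.18 (8.33 to 10.1) in WT. The 2 livers without Cyp3a overlapped each other and stood below the 2 that kept it. Cidec was 2.82-fold lower in the Cyp3a KO than in WT (2.35 to 3.40) and 4.15-fold lower in the DKO than in the Cyp27a1 KO (3.55 to 4.87), pairs with no library in common; 0.579% of measured genes were called lower in both. In the DKO it was also 2.49-fold below WT (2.10 to 2.96), a call that deposited TPM (log2 fold -0.81 against -1.21) does not keep. The Cyp27a1 KO was 1.67-fold above WT (1.48 to 1.88), not called.

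Cidea, the CIDE gene of brown fat and of fatty mouse liver (chromosome 18, 67343604 to 67367785), was all but undetected. It had 0 counts in the Cyp27a1 KO, which allows up to 0.0602 CPM (3 counts), 2 in the Cyp3a KO, 3 in the DKO and 5 in WT. No difference was detectable at this depth. Cideb, the constitutive liver member, had 194 CPM in the Cyp27a1 KO liver, 198 in the Cyp3a KO, 201 in the DKO and 164 in WT. Per transcript, the ratio of Cidec to Cideb TPM was 0.0788 in the Cyp27a1 KO liver, 0.0167 in the Cyp3a KO, 0.0199 in the DKO and 0.0566 in WT. Cideb was named here after its values were seen.

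The 3 perilipin genes among the 10 were each highest in WT and lowest in the DKO. Plin2, the ubiquitous droplet coat protein and the most abundant of these genes in liver (chromosome 4, 86648386 to 86670060), had 345 CPM (340.1 to 350.4) in the Cyp27a1 KO, 318 (313 to 323) in the Cyp3a KO, 209 (205 to 213) in the DKO and 651 (644 to 658) in WT. Plin5, which tethers droplets to mitochondria in oxidative tissues (chromosome 17, 56111601 to 56117596), had 199.6 CPM (196 to 204), 97.5 (94.7 to 100.2), 64.1 (62.0 to 66.3) and 354 (349 to 359.6) in the same libraries. Plin4, its neighbour on the chromosome and a coat protein of small adipocyte droplets (56100591 to 56109803), had 30.9 CPM (29.4 to 32.5), 15.7 (14.6 to 16.8), 5.98 (5.35 to 6.67) and 73.1 (70.7 to 75.6). All 3 ran in the order DKO, Cyp3a KO, Cyp27a1 KO and WT from low to high, with no intervals in contact.

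In the DKO and the Cyp3a KO against WT, the fold was smallest for Plin2, larger for Plin5 and largest for Plin4. In the DKO against WT the folds were 3.12 lower for Plin2 (3.05 to 3.19), 5.52 lower for Plin5 (5.32 to 5.73) and 12.2 lower for Plin4 (10.9 to 13.7), all called. In the Cyp3a KO against WT they were 2.05 lower (2.01 to 2.09), 3.63 lower (3.52 to 3.75) and 4.66 lower (4.31 to 5.04), where the call of Plin2 lies at the threshold, with a log2 fold of -1.03 by counts and -0.83 by deposited TPM. In the Cyp27a1 KO against WT only Plin4 was called, 2.37-fold lower (2.23 to 2.52), with Plin2 and Plin5 at log2 folds of -0.91 and -0.83. Plin4 was called lower in all 5 comparisons. That of the DKO against the Cyp3a KO had a log2 fold of -1.32, or -0.92 by deposited TPM.

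The perilipin genes were lower without Cyp3a on either background, by folds of like size. Plin4 was 4.66-fold lower in the Cyp3a KO than in WT and 5.17-fold lower in the DKO than in the Cyp27a1 KO (4.58 to 5.84), and Plin5 was 3.63-fold and 3.11-fold lower (2.99 to 3.24) in those pairs. With Cidec these were the 3 of the 8 measured genes called lower in both pairs of Cyp3a loss. Plin2 was 2.05-fold and 1.65-fold lower (1.62 to 1.69).

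**Figure D2:**
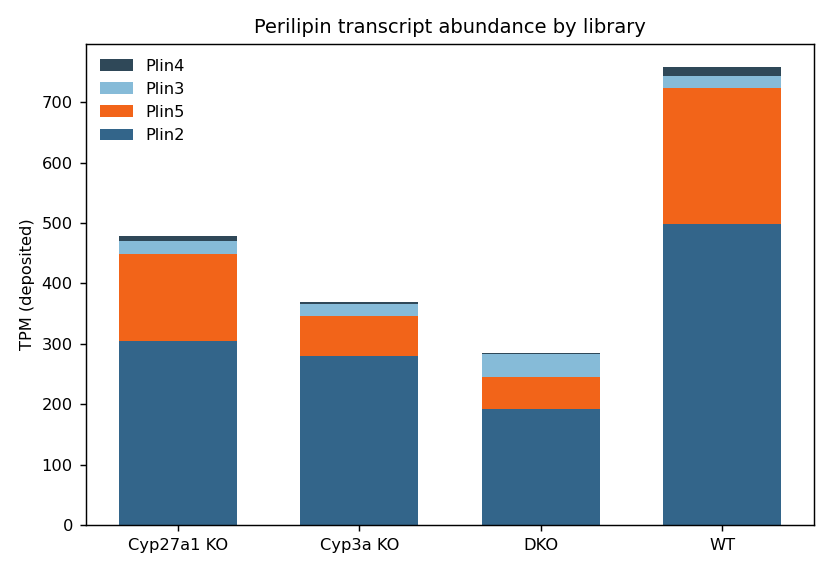
Deposited TPM (y axis, per transcript length) of Plin2, Plin5, Plin3 and Plin4, stacked, in the Cyp27a1 KO, Cyp3a KO, DKO and WT libraries (x axis); Plin1 is at most 0.0124% of each sum and not drawn. The stack is 285 TPM in the DKO and 759 TPM in WT, and the Plin3 segment takes 13.7% of the DKO stack and 2.68% of the WT stack.

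The makeup of the droplet coat at transcript level differed with the totals. Over the 5 perilipin genes, TPM summed to 478 in the Cyp27a1 KO liver, 369 in the Cyp3a KO, 285 in the DKO and 759 in WT. Plin5 supplied 29.9% of that sum in the Cyp27a1 KO liver, 17.8% in the Cyp3a KO, 18.3% in the DKO and 29.6% in WT, so its share was lower in both livers without Cyp3a. Plin3, the perilipin found in the cytosol and on new droplets, supplied 4.76%, 5.34%, 13.7% and 2.68%, and had 52.5 CPM in the DKO against 35.2 in WT. Plin1, the adipocyte perilipin, had 6 counts in the Cyp27a1 KO liver, 3 in the Cyp3a KO, 2 in the DKO and 7 in WT. Plin1 and Plin3 were named after their values were seen.

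G0s2 did not follow the perilipins. This inhibitor of the triglyceride lipase ATGL (chromosome 1, 193272161 to 193273217) had 32.4 CPM (30.9 to 34.1) in the Cyp27a1 KO, 91.0 (88.4 to 93.7) in the Cyp3a KO, 9.29 (8.49 to 10.1) in the DKO and 72.9 (70.5 to 75.4) in WT. It was highest where Cyp3a alone was missing and lowest where both were, with all 4 intervals apart. Loss of Cyp27a1 went with a 2.25-fold lower level against WT (2.12 to 2.39; log2 fold -1.16, or -0.99 by deposited TPM) and a 9.80-fold lower level in the DKO against the Cyp3a KO (8.94 to 10.8). Together with Plin4, G0s2 was called lower in both of these pairs, as were 0.528% of measured genes. Loss of Cyp3a went with a 1.25-fold higher level against WT (1.19 to 1.31, not called) and a 3.49-fold lower level in the DKO against the Cyp27a1 KO (3.16 to 3.87).

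The lipase itself differed less. Pnpla2, which encodes ATGL, had 166 CPM in the Cyp27a1 KO liver, 121 in the Cyp3a KO, 175 in the DKO and 228 in WT, and its coactivator Abhd5 had 29.0, 28.1, 26.8 and 23.7 CPM. Set per transcript, the ratio of G0s2 to Pnpla2 TPM was 0.488 in the Cyp27a1 KO liver, 1.94 in the Cyp3a KO, 0.134 in the DKO and 0.815 in WT. Calls against WT took in 2.44%, 2.56% and 6.0% of all measured genes as higher in the Cyp27a1 KO, Cyp3a KO and DKO. As lower they took in 1.36%, 1.86% and 4.02%. Of 7 measured lipolysis genes 0 were called in either single knockout against WT, and in the DKO 0 were higher and 1 was lower. That gene was Mgll, the monoacylglycerol lipase, 2.87-fold lower (2.77 to 2.97). Pnpla2 and Abhd5 were singled out after their values were seen.

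**Figure D3:**
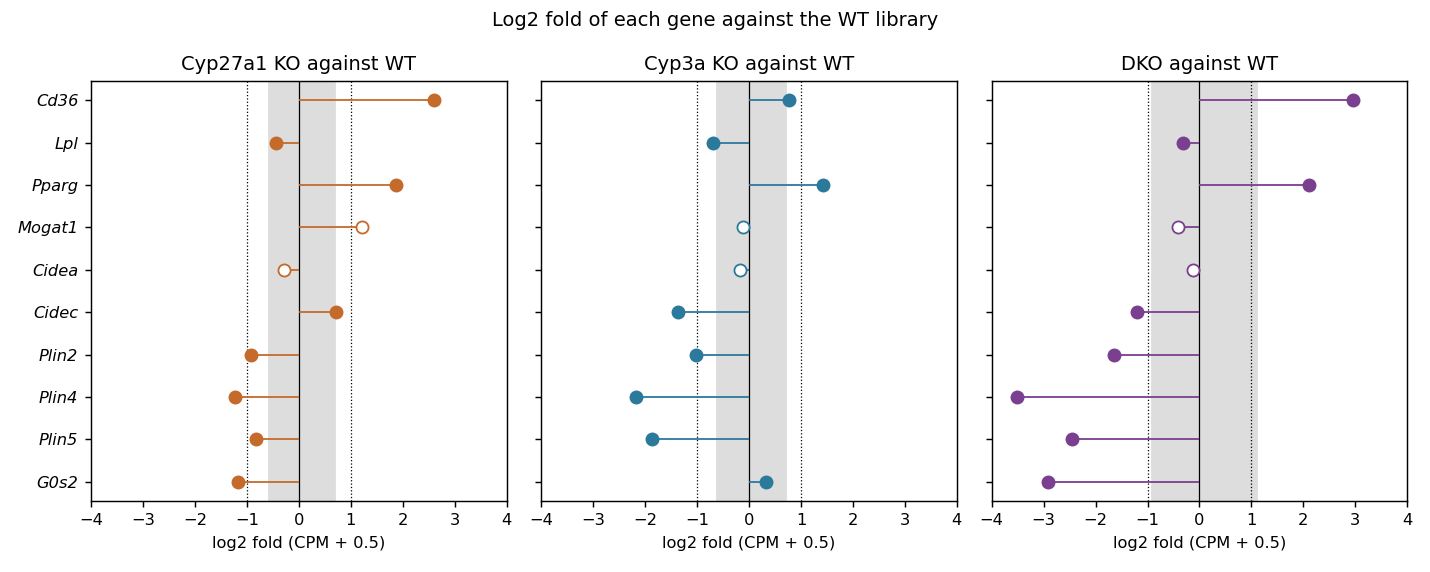
Log2 fold of CPM + 0.5 (x axis) of the 10 genes (rows) in the Cyp27a1 KO, Cyp3a KO and DKO libraries against the one WT library; open circles are the 2 genes under the expression minimum, dotted lines the 2-fold threshold and the grey band the 5% to 95% range of 11743 measured genes. The band runs from -0.91 to 1.10 in the DKO panel, where 7 of the 8 filled points lie outside the dotted lines; the remaining one, Lpl, is at -0.31 by counts and 0.06 by deposited TPM.

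Counted over the 8 measured genes, the calls against WT were even in the Cyp27a1 KO and leaned downward in the Cyp3a KO and the DKO. The Cyp27a1 KO had 2 higher (Cd36, Pparg) and 2 lower (Plin4, G0s2) than WT, where 2.44% of all measured genes were called higher and 1.36% lower. The Cyp3a KO had 1 higher (Pparg) and 4 lower (Cidec, Plin2, Plin4, Plin5), against 2.56% and 1.86% of all genes. The DKO had 2 higher (Cd36, Pparg) and 5 lower (Cidec, Plin2, Plin4, Plin5, G0s2), against 6.0% and 4.02%. Median log2 folds of the 8 were -0.63, -0.86 and -1.42, with all measured genes at 0.00, 0.01 and -0.01. The 3 comparisons share the WT library, so a value peculiar to that mouse would appear in each. In the comparisons without WT, the DKO had 1 higher (Cd36) and 2 lower (Plin4, G0s2) against the Cyp3a KO, beside 4.02% and 2.70% of all genes, and 0 higher and 4 lower (Cidec, Plin4, Plin5, G0s2) against the Cyp27a1 KO, beside 2.84% and 2.59%. Over the 2 pairs of Cyp27a1 loss, 7 of the 8 genes had the same sign, all but Lpl, as did 60.3% of measured genes. Over the 2 pairs of Cyp3a loss 6 of the 8 did, all but G0s2 and Lpl, as did 57.9%, and 0 were called higher in both, as were 0.758%.

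The 4 genotypes form a 2 by 2 layout, in which the DKO can be set beside the product of the single-knockout folds. Departures were taken on log2(CPM + 0.5), but the products on CPM without the added 0.5. A departure is thus not exactly the log2 ratio of the CPM and the product printed beside it. G0s2 had 9.29 CPM in the DKO, where the product gives 40.5, a departure of -2.07 on the log2 scale (-2.22 to -1.92). Pparg had 12.4 CPM, where the product gives 32.1 (-1.21, -1.51 to -0.91; -0.90 with a pseudocount of 2). These 2 of the 8 lay at least 2-fold below the product, as did 3.49% of measured genes, and the 5% to 95% range over all of them was -0.84 to 0.84. Plin4 had 5.98 CPM beside a product of 6.63, a departure of -0.09 (-0.29 to 0.10). Plin5 and Plin2 departed by 0.23 and 0.31, Cd36 by -0.42, Cidec by -0.55 and Lpl by 0.81. With 1 library in each cell these departures carry the individual differences of all 4 mice.

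**Figure D4:**
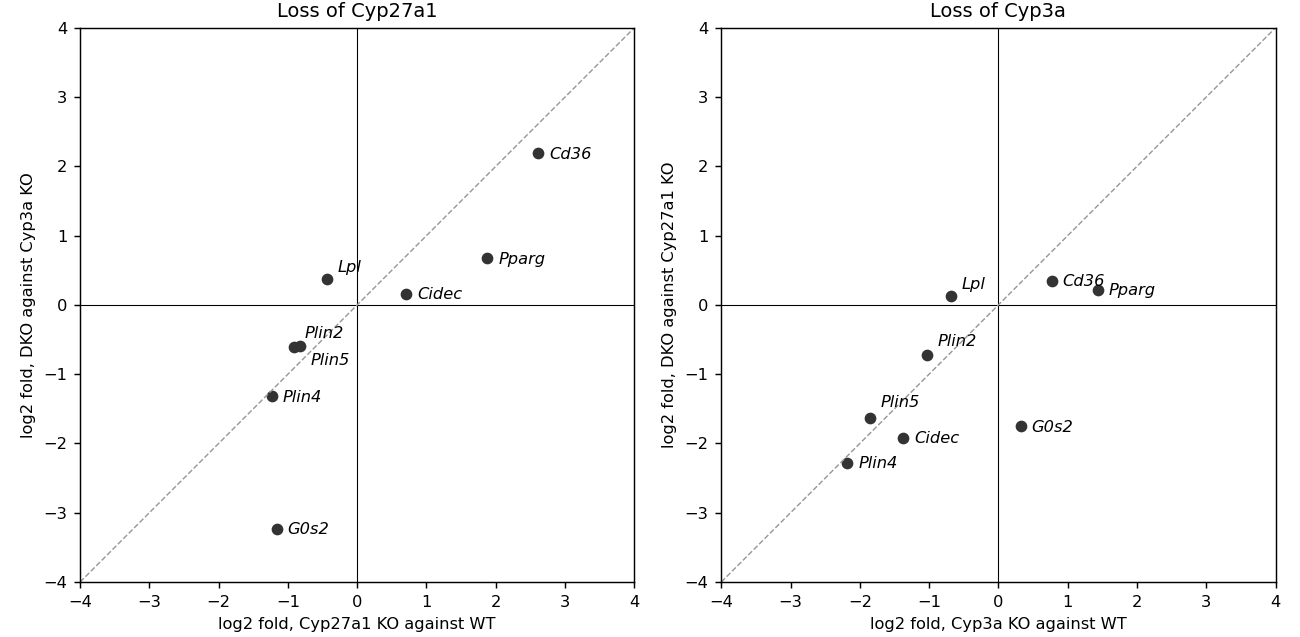
Log2 folds of the 8 measured genes in 2 pairs of libraries that share none: loss of Cyp27a1 on the left (x axis, Cyp27a1 KO against WT; y axis, DKO against Cyp3a KO) and loss of Cyp3a on the right (x axis, Cyp3a KO against WT; y axis, DKO against Cyp27a1 KO), with the dashed line marking equal folds. Cd36 is high in both directions on the left, Plin4 lies near the dashed line in both panels, and G0s2 lies far under it, at -3.23 on the left and -1.75 on the right.

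Per transcript length, the order of the genes changed with genotype. In the DKO, Plin2 led with 193 TPM, followed by Cd36 at 115, Plin5 at 52.3, G0s2 at 20.1, Pparg at 11.1, Lpl at 6.94, Cidec at 5.71 and Plin4 at 1.57. In WT, Plin2 led with 498 TPM, followed by Plin5 at 225, G0s2 at 123, Plin4 at 14.9, Cd36 and Cidec both at 10.4, Lpl at 6.65 and Pparg at 1.63. Cd36 therefore stood above Plin5 in the DKO and below Plin4 in WT. In the Cyp27a1 KO Cd36 stood at 77.1 TPM, under Plin2 (305 TPM) and Plin5 (143 TPM), and in the Cyp3a KO G0s2 was second at 163 TPM, above Plin5 at 65.7.

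Other genes of uptake and droplet formation were called in each comparison. Of 14 measured genes of fatty acid uptake, binding and activation, 1 was called higher in each single knockout, and 3 higher and 1 lower in the DKO, where 6.0% of all measured genes were higher and 4.02% lower. In the Cyp27a1 KO and the Cyp3a KO, 2.44% and 2.56% of all measured genes were higher. Cav1, the caveolar coat protein, was 7.70-fold higher (6.21 to 9.64) in the Cyp27a1 KO, 7.78-fold (6.27 to 9.74) in the Cyp3a KO and 10.1-fold (8.15 to 12.6) in the DKO than in WT, on 94 WT counts. Acsl3, an acyl-CoA synthetase that sits on forming droplets, was 2.17-fold higher (1.98 to 2.38) in the DKO, and the fatty acid binding protein gene Fabp5 was 2.15-fold higher (1.93 to 2.39). Acsl3 was short of the threshold by recentred TPM (log2 fold 0.89) and Fabp5 with a pseudocount of 2 (0.97). Acsl1, the main liver acyl-CoA synthetase, was 2.95-fold lower in the DKO, at 435 CPM against 1284 CPM in WT. The transporter genes Slc27a2 and Slc27a5 were not called against WT.

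Of 10 measured droplet coat and assembly genes, 1 was called higher in each single knockout and 1 lower in the DKO. Of all measured genes, 2.44% were higher in the Cyp27a1 KO, 2.56% higher in the Cyp3a KO and 4.02% lower in the DKO. The higher one was Fitm1, a triglyceride-binding protein of the endoplasmic reticulum that starts droplets. It had 71.0 CPM in the Cyp27a1 KO liver, 20.9 in the Cyp3a KO, 14.9 in the DKO and 8.13 in WT, so it was 8.73-fold (7.85 to 9.74) and 2.56-fold (2.28 to 2.89) higher in the single knockouts. The lower one was Hsd17b11, a droplet-bound dehydrogenase, 2.02-fold lower (1.95 to 2.09) in the DKO, at a log2 fold of -1.01 that median-of-ratios scaling moves to -0.99, short of the threshold.

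Among 10 measured partners and regulators of lipoprotein lipase, 0 were higher and 1 lower in the Cyp27a1 KO, 1 higher and 1 lower in the Cyp3a KO, and 0 higher and 2 lower in the DKO. Of all measured genes, 1.36%, 1.86% and 4.02% were lower in these 3 knockouts, and 2.44%, 2.56% and 6.0% higher. Lipg, the endothelial lipase, was lower in all 3: 2.46-fold (2.31 to 2.63) in the Cyp27a1 KO, 2.13-fold (2.0 to 2.26) in the Cyp3a KO, where library-total scaling takes it to a log2 fold of -0.99, and 5.06-fold (4.66 to 5.50) in the DKO. Angptl8, an insulin-induced inhibitor of the lipase, was 5.73-fold higher (5.03 to 6.54) in the Cyp3a KO, the library where G0s2 was also highest. Angptl4, a fasting-induced inhibitor, was 2.31-fold lower (2.25 to 2.37) in the DKO, a call that deposited TPM (log2 fold -0.83) did not keep. Gpihbp1, the capillary anchor of the lipase, had 14.7 CPM in the Cyp27a1 KO liver, 11.7 in the Cyp3a KO, 15.7 in the DKO and 18.7 in WT, the same order as Lpl, and was named after its values were seen.

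Genes with profiles over the 4 libraries most like those of the 10 were found by the root mean square distance between centred log2 values, among 8670 genes with a mean of at least 5 CPM. Nearest to Cd36 were Cyp26a1, the retinoic acid hydroxylase (distance 0.16), Aqp8 (0.24) and Fam129b (0.24). Cyp26a1 had 30.8 CPM in the Cyp27a1 KO, with 9.77 CPM in the Cyp3a KO, 38.6 CPM in the DKO and 6.05 CPM in WT. Nearest to Pparg were Aldh1a1, a retinaldehyde dehydrogenase (0.07), Ppp1r3g (0.14) and Them7 (0.18). Aldh1a1 had 2752 CPM in the Cyp27a1 KO, with 2217 CPM in the Cyp3a KO, 3635 CPM in the DKO and 798 CPM in WT. Nearest to Plin5 were Slc22a7 (0.13), Pdk4, the kinase that switches off glucose oxidation (0.16), and Slc3a1 (0.19). G0s2 had Atoh8 (0.22), Sult5a1 (0.29) and Mup10 (0.30; one of a family of near-identical genes among which reads may be split), and Cidec had Foxq1 (0.12), Tuba8 (0.25) and Phospho1 (0.28). Within the 10, Plin4 and Plin5 were each other's nearest at 0.38, as were Cd36 and Pparg at 0.61. A profile of 4 values finds close company easily among this many genes: Plin2 and Lpl each had 3 neighbours within 0.05.

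Cells other than hepatocytes also express some of these genes, and in whole liver fewer cells of a type cannot be told apart from less RNA per cell. Kupffer cell markers, 10 of 10 measured, summed to 336 CPM in the Cyp27a1 KO liver, 208 in the Cyp3a KO, 490.4 in the DKO and 310.0 in WT, with Adgre1 (2.63-fold, 2.40 to 2.89) and Cd5l (2.25-fold, 2.14 to 2.36) called higher in the DKO, and Marco 3.28-fold lower (2.57 to 4.22) in the Cyp3a KO. The part of these cells in the Cd36, Pparg and Lpl values was not tested. Endothelial markers, 10 of 10 measured, summed to 268, 238, 286 and 309.5 CPM in the Cyp27a1 KO, Cyp3a KO, DKO and WT, with 1 call, Lyve1, 2.79-fold lower (2.54 to 3.08) in the Cyp3a KO.

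Of 10 adipocyte markers, Lep had 0 counts in all 4 libraries, and Adipoq had 2 in the Cyp27a1 KO liver, 1 in the Cyp3a KO, 2 in the DKO and 0 in WT. Retn, Adig and Slc2a4 also had 0 counts in at least 1 library, Retn with 19 counts in the Cyp27a1 KO against 0 in WT. Cfd, the adipsin gene, had 146 counts in the Cyp27a1 KO against 6 in WT, Lipe had 17.8 CPM against 19.2 CPM, and Fabp4 had 7.97 CPM against 9.67 CPM. The part of such cells in the values above was not tested. The list of 10 summed to 29.5, 23.6, 25 and 29.3 CPM in the Cyp27a1 KO, Cyp3a KO, DKO and WT, with its 2 measured genes, Lipe and Fabp4, not called. Stellate cell markers, 10 of 10 measured, summed to 188, 239.7, 177 and 227 CPM, and Acta2, called higher in both single knockouts, had 1.65 CPM in the Cyp27a1 KO liver and 1.90 CPM in the Cyp3a KO against 0.558 CPM in WT. Both Acta2 calls rest on 26 WT counts and ended with a pseudocount of 2 (log2 folds 0.51 and 0.61) and with the higher expression minimum. They also ended by deposited TPM, recentred or not. Without recentring the log2 folds there were 1.02 and 1.11, past the threshold, but the mean TPM of Acta2 was under the minimum. Monocyte markers (5 of 8 measured) summed to 48.4, 33.1, 57.7 and 48.5 CPM, cholangiocyte markers (4 of 6) to 31.3, 42.5, 37.4 and 43.2 CPM, and lymphocyte markers (1 of 7) to 7.73, 5.57, 11.2 and 5.28 CPM. Sox9 was called 2.38-fold lower in the Cyp27a1 KO and 2.70-fold lower (2.21 to 3.29) in the DKO than in WT, and Ptprc, present on all leukocytes, 2.35-fold higher (1.98 to 2.80) in the DKO. By deposited TPM the log2 fold of Sox9 was -0.80 and -0.79 in these comparisons, and with a pseudocount of 2 it was -0.88 and -0.98, all short of the threshold; Ptprc was short of it with a pseudocount of 2 (0.93) and by recentred TPM (0.78). Trem2, of lipid-associated macrophages, was called 2.31-fold higher (1.85 to 2.89) in the Cyp27a1 KO and lower in the other knockouts, calls that deposited TPM did not keep.

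Clock genes stood apart between the libraries as well, and several genes of fat storage vary over the day. Dbp, a clock output gene, had 61 counts in the Cyp27a1 KO liver, 1448 in the Cyp3a KO, 2710 in the DKO and 96 in WT, and Arntl, which peaks at the opposite phase, had 1441, 529, 107 and 1379 counts. The 2 livers without Cyp3a thus differed from the 2 with it in these genes, as they did in Cidec, Plin4 and Plin5. Plin2 was also lower in both livers without Cyp3a, by little between the single knockouts (318 CPM in the Cyp3a KO against 345 CPM in the Cyp27a1 KO). Time of collection was not stated with the samples, and its part in these values was not tested. Both genes were added after the data were seen.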

How the data were processed

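TruSeq RNA v2 libraries were made from the livers of 4 male mice (1 per genotype), per the labels' protocols. kallisto 0.43.1, HISAT2 2.0.5 and Trimmomatic 0.33 are named in the submitters' processing notes, together with mm10 and with no role for each; the annotation is not given in the sources used here. Estimated counts by gene symbol were deposited by the authors, and 67.7% of them lay within 0.001 of a whole number; they were rounded. The authors also deposited TPM, used for levels between genes and as an alternative. Columns were matched by name. A row without a gene name (1, at 0 counts) was dropped.

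Counts were scaled with TMM (edgeR 4.0.16, R 4.3.3). With 1 library per genotype no test was run, and a call used the 2-fold rule given in the report. Intervals are exact Poisson for levels and exact conditional binomial for ratios, and delta-method for departures. No molecular identifiers are recorded for the reads, so intervals and the floor of 3 counts cover counting error only. The call was tested on simulated data. Coordinates come from GENCODE M21 (GRCm38, the mm10 build) and upstream sequences from RefSeq.

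The genes described and the lists were chosen with earlier results of these data known. Named beside the 10 genes were, per list and comparison with WT, up to 2 called genes with the largest fold, the called marker with the largest fold and markers at 0, and the 3 nearest profiles (predicted genes passed over); some were left out for length. Of the listed pathway genes 76 were found by symbol and 72 measured; Ldaf1 was not matched. The alternatives tried were scaling by library total, DESeq2 1.42.0 size factors (median of ratios), deposited TPM with and without recentring on the median gene, pseudocounts of 0.1 and 2, a mean of at least 5 CPM, no filter, and a 1.5-fold threshold. Computation used Python 3.11.15, numpy 2.4.6, pandas 2.3.3 and scipy 1.17.1.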

Additional observations from a re-analysis of the deposited data

Results flagged for a closer look

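G0s2 and Lpl moved in opposite directions in the 2 pairs of libraries that measure the same loss, with both counting intervals leaving out 1 in each case; the difference was not tested, as each pair holds 1 library per side. For loss of Cyp3a, G0s2 was 3.49-fold lower in the DKO than in the Cyp27a1 KO (3.16 to 3.87) but 1.25-fold higher in the Cyp3a KO than in WT (1.19 to 1.31), a departure of -2.07 on the log2 scale. For loss of Cyp27a1, Lpl was 1.31-fold higher in the DKO than in the Cyp3a KO (1.17 to 1.46) but in the Cyp27a1 KO 1.37-fold lower than in WT (1.24 to 1.52), a departure of 0.81. Neither fold of Lpl passed the threshold.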

How the results depend on the processing

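Of 450 values (50 folds of the 10 genes under 9 alternatives), 431 kept their call or lack of one. A call was lost by 7 and gained by 12, and 0 called folds reversed. The sign of 2 uncalled folds turned: Lpl in the DKO against WT (0.06 with deposited TPM, -0.31 reported) and Cidea in the DKO against the Cyp3a KO (-0.15 with recentred TPM, 0.04 reported). Of 324 such values for the other named genes, 48 lost the call and 0 reversed. Some of the 48 kept a fold past the threshold and lost the call only to the expression minimum. Mogat2 in the DKO against WT, at 3.91 with a minimum of 5 CPM, was one. With deposited TPM, genes called lower numbered 1 in the Cyp27a1 KO against WT (without G0s2, at -0.99) and 1 in the DKO against the Cyp3a KO (without Plin4, at -0.92), and 2 were called higher in the DKO against the Cyp3a KO (with Pparg, at 1.0). At 1.5-fold, 4 were lower in the Cyp27a1 KO against WT and 2 higher in the Cyp3a KO against WT, and the DKO against the Cyp3a KO had 2 higher and 4 lower. Plin2 in the Cyp3a KO against WT fell short with library-total scaling (-0.95) and with deposited TPM, recentred (-0.92) or not (-0.83). Cidec in the DKO against WT did so with deposited TPM (-0.81) and a pseudocount of 2 (-0.97). Without the filter, Mogat1 was called higher in the Cyp27a1 KO than in WT (1.22) and lower in the DKO than in the Cyp27a1 KO (-1.63). The departure of Pparg was -0.90 with a pseudocount of 2.

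Over the 76 pathway genes, calls in the Cyp27a1 KO were 4 higher and 1 lower, and 6 lower at 1.5-fold. In the Cyp3a KO they were 4 higher and 2 lower; 1 was lower with library-total scaling and with deposited TPM, 7 were higher with a pseudocount of 0.1, and 8 were higher and 14 lower at 1.5-fold. In the DKO they were 5 higher and 7 lower, 8 and 3 with deposited TPM, and 9 and 17 at 1.5-fold. Deposited TPM moved the median gene by 0.18, 0.09 and 0.33 in the Cyp27a1 KO, Cyp3a KO and DKO against WT, by 0.24 in the DKO against the Cyp3a KO and by 0.16 against the Cyp27a1 KO. The share of all called genes that were higher was 64.2%, and 77.6% with deposited TPM, in the Cyp27a1 KO. In the DKO against WT it was 59.9%, 73.3% with library-total scaling and 82.7% with deposited TPM; against the Cyp3a KO it was 59.8% and 77.7% with deposited TPM, and against the Cyp27a1 KO 52.3% and 65.6%. With TPM recentred on the median gene it was 63.9% in the Cyp27a1 KO and 60.2% in the DKO, both against WT. For the DKO it was then 59.8% against the Cyp3a KO and 51.1% against the Cyp27a1 KO. The cause was not tested. No paired analysis was possible because each genotype has 1 library.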

Other observations

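Cidec, Mogat1 and Fitm1 were highest in the Cyp27a1 KO library, as were Cfd and Trem2, which were singled out among the markers after their values were seen. Cfd had 146 counts in the Cyp27a1 KO liver, 23 in the Cyp3a KO, 2 in the DKO and 6 in WT, with a mean under the minimum of 1 CPM. Trem2, a receptor of lipid-associated macrophages, had 281, 19, 7 and 114 counts in the same libraries. The 2 deposited tables differ on its size: its deposited TPM was 1.58 in the Cyp27a1 KO, with 0.452 in the Cyp3a KO, 0.181 in the DKO and 0.657 in WT. In the Cyp3a KO against WT its log2 fold was -1.74 by counts and -0.28 by deposited TPM, and in the DKO against WT -2.23 and -0.76.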
